A study of Mus musculus with 6 samples.

Results

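The epidermal differentiation complex is a cluster of genes on mouse chromosome 3 that encodes structural proteins of the outer epidermis, flanked by genes of the S100A calcium-binding proteins. Its genes were taken from the count table by symbol. They are all symbols beginning with Sprr, Lce or S100a, and Lor, Ivl, Flg, Flg2, Hrnr, Rptn, Tchh and Tchhl1. This gave 61 of the 55385 mouse genes in the table, made up of 21 late cornified envelope genes (Lce), 17 small proline-rich genes (Sprr), 15 S100A genes and 8 genes of large envelope precursors and fused S100 proteins. On the GRCm38 build, 60 of them lie on chromosome 3 between positions 90511034 and 93564643. The remaining one, the pseudogene S100a11-ps, lies on chromosome 12.

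RNA was sequenced in bulk from PDVC57, a mouse line of transformed keratinocytes that forms squamous cell carcinomas. There were 3 libraries labelled Sox2 KO (a knockout, in which the gene for the stem cell transcription factor Sox2 is disrupted) and 3 labelled Sox2 overexpression (in which additional Sox2 is supplied). Per the series' design text, cells of low and of high Sox2 were taken out of grafted tumours, so all libraries share the line and the graft, and the stated aim concerned how Sox2 in these stem-like cells might influence neutrophils. The labels used here do not say how Sox2 was altered, whether a group is 1 clone, or whether replicates came from separate animals. P-values therefore measure only the spread between these libraries, which may be technical.

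In the epidermis, keratinocytes that leave the basal layer build a cornified envelope under the cell membrane. Transglutaminases link involucrin (Ivl), loricrin (Lor), the small proline-rich proteins and the late cornified envelope proteins into it, and filaggrin (Flg) bundles keratin filaments beneath it. Small proline-rich proteins are low in resting skin and increase in injured, inflamed or squamous tissue. The S100A proteins bind calcium and then bind target proteins such as annexins. The pair S100a8 and S100a9 forms calprotectin, an abundant protein of neutrophils that stressed keratinocytes also make.

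The upstream sequences of 5 of these genes are shown because the small proline-rich genes and Lor were among the members that differed most between the groups, while Ivl, their neighbour, did not pass the test. Each is the 200 bases before the RefSeq start on GRCm38.p6, written 5′ to 3′ on the gene's strand. Capitals mark the AP-1 motif TGANTCA, which Jun and Fos proteins bind, and the TATA box TATAAA. GENCODE starts Sprr1a slightly further upstream than RefSeq does.
Sprr1a (chr3:92485882-92486081, minus strand): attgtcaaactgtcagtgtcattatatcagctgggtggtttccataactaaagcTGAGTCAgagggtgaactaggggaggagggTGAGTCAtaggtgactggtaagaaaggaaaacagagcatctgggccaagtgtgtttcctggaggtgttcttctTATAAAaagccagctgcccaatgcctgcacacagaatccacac
Sprr2h (chr3:92385485-92385684, plus strand): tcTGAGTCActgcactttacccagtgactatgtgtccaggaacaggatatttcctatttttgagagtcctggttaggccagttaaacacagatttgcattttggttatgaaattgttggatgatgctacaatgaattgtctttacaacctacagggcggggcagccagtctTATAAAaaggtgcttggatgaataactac
Sprr3 (chr3:92458721-92458920, minus strand): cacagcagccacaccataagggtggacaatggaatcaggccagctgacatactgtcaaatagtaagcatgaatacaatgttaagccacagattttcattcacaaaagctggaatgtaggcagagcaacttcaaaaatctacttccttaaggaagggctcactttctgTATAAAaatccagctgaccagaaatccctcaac
Lor (chr3:92083143-92083342, minus strand): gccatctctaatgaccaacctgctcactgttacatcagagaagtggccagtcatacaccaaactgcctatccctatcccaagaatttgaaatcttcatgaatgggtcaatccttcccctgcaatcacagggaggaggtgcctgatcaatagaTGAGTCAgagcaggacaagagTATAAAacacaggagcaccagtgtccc
Ivl (chr3:92573736-92573935, minus strand): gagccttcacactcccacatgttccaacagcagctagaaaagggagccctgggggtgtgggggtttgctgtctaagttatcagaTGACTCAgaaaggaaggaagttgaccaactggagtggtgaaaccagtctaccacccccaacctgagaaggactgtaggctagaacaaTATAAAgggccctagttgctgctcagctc

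In Sprr1a the AP-1 motifs begin 146 and 116 bases before the start and the TATA box 43 bases before it. In Lor both stand close to the start, at 48 and 27 bases. Sprr3 has the TATA box, at 33 bases, and no TGANTCA in the window. Ivl, whose RNA did not pass the test, has both motifs as well, at 116 and 29 bases. RefSeq promoter windows matched 52 of the 61 genes by symbol. Over the 250 bases before the start and on both strands, TGANTCA was in 17 of these 52 genes and in 9 of 13 Sprr genes, against 6.73% of all 32544 promoter windows. Of the tested members it was in 3 of 6 Sprr genes and 2 of 8 S100A genes. Sprr2b, Sprr2d, Sprr2e, Sprr2f, Sprr2i and Sprr2k, which had few or no counts, hold the other Sprr matches, and the windows of Sprr2a1 and Sprr2a3 have none. GENCODE starts Sprr2a1 at position 92215799, inside its window, and Sprr2a3 at 92285417, downstream of its window. Their windows are thus not the bases just before the GENCODE starts. TATAAA was in 22 of 52 genes and 10 of 13 Sprr genes, against 12.3% of all windows. The core letters that SOX proteins bind, ACAAT, were in 19 of 52 genes and 7 of 13 Sprr genes, against 27.4% of all windows, and ACAAAG was in 8 of 52 and 3 of 13, against 16.5%. The octamer ATGCAAAT, which POU factors bind, was in 7 of 52 genes, all of them Sprr and 1 of them tested, against 1.62% of all windows. In Ivl the ACAAT match and the TATA box share a base. These genes arose as copies of one another, so their windows are not independent, and a match is a run of letters and no evidence of binding.

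Library totals lay between 31247976 and 38543221 counts. Sox2 itself had 49, 34 and 25 counts in knockout replicates 1 to 3 and 2566, 3790 and 4095 counts in overexpression replicates 1 to 3, so the libraries followed their labels. Across genes, log2 levels correlated at 0.957 to 0.985 within groups and at 0.808 to 0.885 between them, as a description only. The knockout libraries held far more RNA of fibroblast genes. The 10 fibroblast markers, collagens and Dcn among them, summed to 54570 to 83094 CPM (counts scaled to a common library size) in knockout and to 258 to 406 CPM with overexpression, and all 10 fell. The 8 keratinocyte markers summed to 4169 to 6318 CPM in knockout and 8897 to 13673 CPM with overexpression. Of these, 6 rose, Epcam and Cdh1 among them, and Krt5 (adjusted p = 0.0584) and Krt14 (adjusted p = 0.251) did not pass the test. In bulk RNA, fewer cells of a type and less RNA per cell cannot be told apart. The part of this difference in cell make-up in the values that follow was not tested. Where a second scaling, to 21 epithelial genes, changed the result of a member, its value is given. For the lists of cornification genes and S100 partners, only the counts under that scaling are given.

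Levels are given in CPM, scaled by library sizes normalized with TMM, a method that takes most genes as unchanged. Groups were compared with edgeR's quasi-likelihood test, with Benjamini-Hochberg adjustment over all 18504 genes that passed a filter on low counts and a threshold of 0.05 on the adjusted p. Of the 61 genes, 51 had at least 1 count and 23 passed the filter. Of these 23, 17 rose with overexpression, and 18 had every overexpression library above every knockout library. Over all genes tested, 13.6% rose, 18.0% fell and 24.4% had every overexpression library above every knockout library. No member fell in edgeR's test, none had an unadjusted p under 0.05 in that direction, and DESeq2 called 0 members lower. The median log2 fold change of overexpression over knockout was 1.41 over the 23 genes and -0.016 over all genes tested. Sprr2g, Sprr2h, Sprr3 and Flg did not pass the filter on their knockout libraries alone. Passing through overexpression libraries favours a rise, so their rise is no independent support. Of the 19 others, 13 rose.

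**Figure D1:**
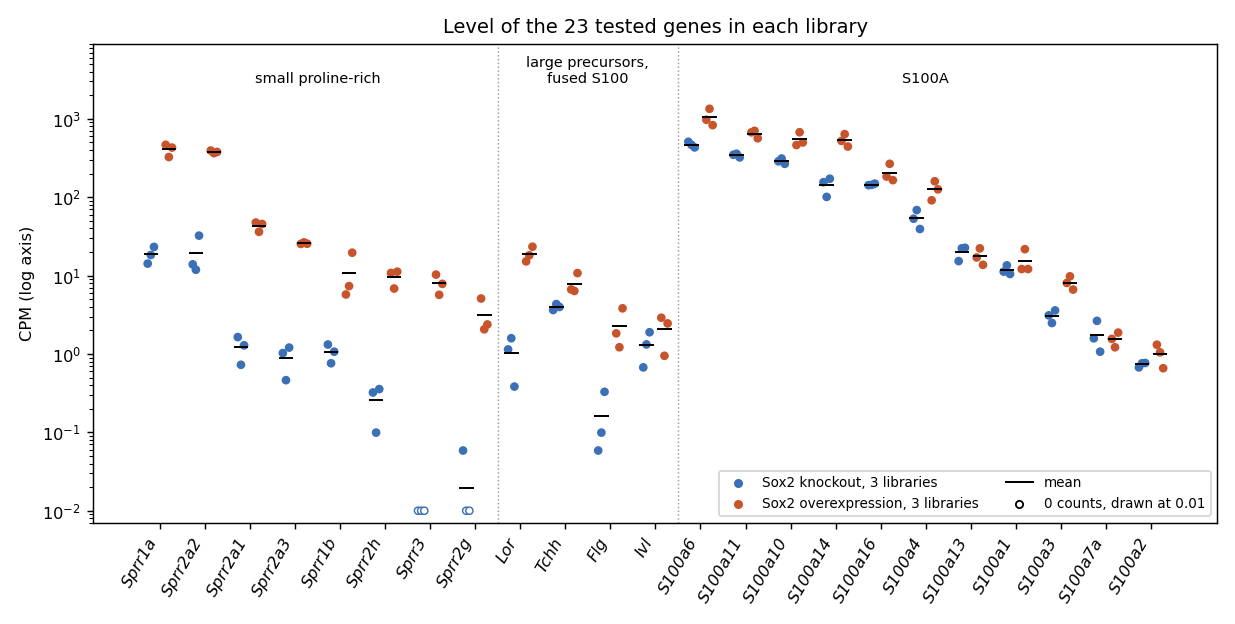
Level of each of the 23 tested genes in CPM on a log axis, in 3 knockout and 3 overexpression libraries, with group means as bars and libraries without a count drawn as open circles at 0.01. The groups stand apart for all 8 small proline-rich genes and for Lor, and they overlap for Ivl, S100a13 and S100a7a.

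The small proline-rich genes rose most. Of the 8 that passed the filter, Sprr2g, Sprr2h and Sprr3 passed it through their overexpression libraries, so their rise is no independent support. The 5 others, 3 of them near-identical copies, also rose, with log2 fold changes from 3.37 to 5.13, and no library of one group reached into the other. They encode short proline-rich proteins that transglutaminases use to join other envelope proteins. Sprr1a (ENSMUSG00000050359, chr3:92483952-92485895) was at 14.2, 18.3 and 23.2 CPM in knockout replicates 1 to 3 and at 466, 325 and 429 CPM in overexpression replicates 1 to 3. Every overexpression library was thus far above every knockout library. Its knockout mean was 18.6 ± 4.51 CPM and its overexpression mean 407 ± 73.1 CPM (SD, n = 3 each), a 21.9-fold rise (log2 fold change 4.45, SE 0.25, adjusted p = 4.19e-06).

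Sprr2a1, Sprr2a2 and Sprr2a3 are near-identical copies, and the exons of Sprr2a1 and Sprr2a2 overlap on the same strand. In GENCODE M21 transcripts, 3.06% of the 31-base words of Sprr2a1, 2.17% of those of Sprr2a2 and 26.4% of those of Sprr2a3 occur in no other gene, so the split of reads between them is uncertain. Their sum was 16.6, 13.1 and 34.8 CPM in knockout and 466, 427 and 448 CPM with overexpression. Knockout replicate 3 was the highest of its group, and the overexpression libraries lay close together. The sum rose 20.8-fold, from 21.5 ± 11.7 to 447 ± 19.5 CPM (log2 fold change 4.38, SE 0.37, adjusted p = 4.22e-05).

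Taken separately, each copy rose as well. Sprr2a2, which received most of the reads, was at 13.9, 11.9 and 32.3 CPM in knockout and 393, 365 and 377 CPM with overexpression, a 19.5-fold rise (adjusted p = 6.03e-05). Without knockout replicate 3 its knockout mean was 12.9 instead of 19.4 CPM and its log2 fold change 4.88 instead of 4.29. Sprr2a1 was at 1.64, 0.727 and 1.29 CPM against 47.5, 36.1 and 45.6 CPM (35.0-fold, adjusted p = 5.38e-06), and Sprr2a3 at 1.03, 0.463 and 1.21 CPM against 25.3, 26.5 and 25.5 CPM (28.3-fold, adjusted p = 1.09e-05).

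Sprr2h and Sprr1b were lower in level and also separated the groups. Sprr2h had 11, 3 and 13 counts in knockout and 354, 202 and 443 counts with overexpression, a 36.0-fold rise (log2 fold change 5.17, SE 0.46, adjusted p = 5.65e-05). Sprr1b, the closest relative of Sprr1a, was at 1.32, 0.761 and 1.07 CPM in knockout and 5.74, 7.34 and 19.6 CPM with overexpression, a 10.3-fold rise (log2 fold change 3.37, SE 0.51, adjusted p = 0.00125). Overexpression replicate 3 was well above the other overexpression libraries for Sprr1b. Without it the overexpression mean was 6.54 instead of 10.9 CPM and the log2 fold change 2.65.

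Sprr3, typical of the lining of the mouth and oesophagus, had no count in any knockout library and 337, 168 and 310 counts with overexpression. A count of 0 allows up to 3 counts in a library. Against that floor in the least deep knockout library, Sprr3 was at least 80.0-fold higher with overexpression (adjusted p = 5.09e-05). Sprr2g had 2, 0 and 0 counts in knockout and 167, 61 and 94 counts with overexpression, a ratio of 159 with a 95% exact binomial interval of 43.8 to 1322 that covers counting error only (adjusted p = 0.000313). GENCODE lists Sprr2g as a polymorphic pseudogene. Its knockout counts all came from replicate 1, and without that library its knockout level was 0.

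The 9 other Sprr genes did not pass the filter and had at most 57 counts in a library. Sprr2k had 2, 0 and 0 counts in knockout and 21, 8 and 57 with overexpression, a ratio of 42.6 with a counting interval of 11.4 to 357. Sprr2d had 0, 1 and 3 counts in knockout and 12, 22 and 5 with overexpression. Both were thus detected mainly with overexpression and received no test. Sprr2f had 0, 0 and 3 counts against 6, 7 and 7, and Sprr2i 5, 0 and 0 against 13, 4 and 4. Sprr2b, Sprr2c-ps, Sprr2e and Sprr4 had no count in knockout and at most 3 in any overexpression library. Sprr2j-ps had 2, 0 and 11 counts in knockout and 0, 2 and 3 with overexpression.

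Among the large precursors, Lor and Flg rose several-fold, Tchh rose slightly, and Ivl did not pass the test. Loricrin is the main protein of the mature envelope. Lor (ENSMUSG00000043165, chr3:92080271-92083142) was at 1.14, 1.59 and 0.384 CPM in knockout and 15.2, 18.1 and 23.3 CPM with overexpression. The groups were far apart, and knockout replicate 3 was the lowest library. The mean rose 18.3-fold, from 1.04 ± 0.609 to 18.9 ± 4.14 CPM (SD, 3 libraries each, log2 fold change 4.20, SE 0.46, adjusted p = 0.000195).

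Flg had 2, 3 and 12 counts in knockout and 60, 36 and 151 with overexpression, with no overlap. The rise was 13.6-fold (log2 fold change 3.77, SE 0.70, adjusted p = 0.00357), but Flg had passed the filter through its overexpression libraries, which favours a rise. Replicate 3 was the highest library of each group. Without knockout replicate 3 the knockout mean was 0.0789 instead of 0.162 CPM and the log2 fold change 4.82, and without overexpression replicate 3 the overexpression mean was 1.52 instead of 2.29 CPM and the log2 fold change 3.20. Rptn (repetin, a fused S100 protein of the cornified envelope) was untested, with no count in knockout and 56, 3 and 86 counts with overexpression. Against the floor of 3 counts it was at least 13.4-fold higher, and overexpression replicate 2 was close to that floor.

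Tchh (trichohyalin, a protein of the inner root sheath of hair follicles) was at 3.63, 4.33 and 3.97 CPM in knockout and 6.65, 6.36 and 10.7 CPM with overexpression. The groups did not overlap, and the 1.99-fold rise passed narrowly (log2 fold change 0.99, SE 0.28, adjusted p = 0.0255). Its adjusted p was 0.0676 without knockout replicate 1, 0.0624 without replicate 2, 0.0555 without replicate 3 and 0.105 without overexpression replicate 3. Scaled to the epithelial genes its log2 fold change was -0.080 (adjusted p = 0.841). Ivl was at 0.674, 1.32 and 1.89 CPM in knockout and 2.90, 0.947 and 2.45 CPM with overexpression, with overlapping groups (log2 fold change 0.70, SE 0.52, adjusted p = 0.337). Its value scaled to the epithelial genes was -0.38, also short of the threshold. Flg2 and Hrnr had at most 1 count in a library and Tchhl1 at most 2, so differences in them were not detectable at this depth.

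The late cornified envelope genes were nearly silent. Of 21, 10 had no count in any library and none passed the filter. Together they had 14 counts in the knockout libraries and 128 with overexpression. Of their 31-base words, 39.7% to 100% occur in no other gene, with 50.3% for Lce3c, so the split of reads between Lce genes is uncertain. Lce3c, whose human counterpart is induced when skin is injured, held the most, with 2, 0 and 0 counts in knockout and 11, 8 and 31 with overexpression, a ratio of 24.7 with a counting interval of 6.50 to 210. Lce1g had 1, 2 and 0 counts against 17, 3 and 0, and Lce1h had no knockout count against 10, 1 and 3. Both came mostly from overexpression replicate 1. Lce6a, Lce1a1, Lce1b, Lce1d, Lce1f, Lce1i, Lce3a and Lce3d had between 0 and 6 counts in every library.

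The S100A genes carried most of the RNA of the cluster and differed less. Of 15 genes, 11 passed the filter and 6 rose, by 1.89 to 3.74 times, and the log2 fold changes of the 11 had a median of 0.92. Scaled to the epithelial genes, 1 of the 11 rose, 4 fell, and the median was -0.16. Under that scaling 13326 of all 18504 genes tested passed the threshold in either direction, and the median over all genes was -1.08. S100a14 (ENSMUSG00000042306, chr3:90526856-90528837), a protein of epithelial cells, was at 155, 101 and 172 CPM in knockout and 521, 637 and 443 CPM with overexpression. Every overexpression library was above the knockout libraries by more than their spread, and the 3.74-fold rise was the greatest of the class (log2 fold change 1.90, SE 0.24, adjusted p = 0.000437). S100a3, known from the hair cuticle, was at 3.11, 2.48 and 3.59 CPM against 8.06, 9.78 and 6.63 CPM (log2 fold change 1.41, SE 0.27, adjusted p = 0.00416). With the epithelial scaling S100a14 still rose and S100a3 did not pass the test (0.31, adjusted p = 0.432).

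The 3 S100A genes of highest CPM rose as well under TMM, but not when scaled to the epithelial genes, where the log2 fold change was 0.085 for S100a6, -0.16 for S100a10 and -0.15 for S100a11. S100a6 (calcyclin) was at 509, 465 and 431 CPM in knockout and 972, 1341 and 830 CPM with overexpression (log2 fold change 1.16, SE 0.21, adjusted p = 0.00329). S100a10, which binds annexin A2 at the cell membrane, was at 287, 311 and 266 CPM against 462, 673 and 499 CPM (log2 fold change 0.92, SE 0.19, adjusted p = 0.00575). S100a11, which binds annexin A1, was at 347, 358 and 322 CPM against 671, 702 and 564 CPM (log2 fold change 0.92, SE 0.16, adjusted p = 0.00263). The groups did not overlap for any of these.

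S100a4, a protein linked to motility and abundant in fibroblasts too, was at 53.1, 68.5 and 39.3 CPM in knockout and 91.2, 160 and 126 CPM with overexpression (log2 fold change 1.23, SE 0.26, adjusted p = 0.00693). With the epithelial scaling it did not pass the test (0.16, adjusted p = 0.514). Under TMM S100a4 was higher in the group with less RNA of fibroblast markers, and the part of fibroblasts in its level was not tested. Of its 31-base words, 50.8% occur in no other gene, as an overlapping gene model on the same strand holds the rest, and for S100a11 the share is 51.1%, so their reads could be split. For Sprr1a, Sprr1b, Sprr3, Lor, Tchh and S100a6 the share is 100%.

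The other 5 tested S100A genes did not pass the test. S100a16 was at 142, 144 and 149 CPM in knockout and 183, 267 and 165 CPM with overexpression, which did not overlap (log2 fold change 0.50, SE 0.20, adjusted p = 0.0838). S100a1, a gene of heart and muscle, was at 11.2, 13.5 and 10.5 CPM against 12.1, 21.7 and 12.1 CPM (adjusted p = 0.299), and S100a2 at 0.674, 0.761 and 0.767 CPM against 1.31, 1.05 and 0.658 CPM (adjusted p = 0.419). The groups overlapped for both, and for S100a2 an overexpression library was the lowest of all 6. S100a13 was at 15.3, 22.3 and 22.6 CPM against 17.0, 22.2 and 13.7 CPM (log2 fold change -0.18, SE 0.24, adjusted p = 0.580). S100a7a, the mouse relative of psoriasin, was at 1.58, 2.65 and 1.07 CPM against 1.56, 1.22 and 1.87 CPM (log2 fold change -0.18, SE 0.41, adjusted p = 0.762). A missed threshold does not show that these levels were equal. S100a5 and S100a11-ps had at most 5 counts in a library.

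S100a8 and S100a9 went the other way, at counts too low for the filter. S100a8 had 2, 8 and 70 counts in knockout and 1, 0 and 0 with overexpression, a ratio of knockout to overexpression of 80.8 with a counting interval of 14.1 to 3231. Without knockout replicate 3 the knockout mean was 0.162 instead of 0.747 CPM and the ratio 15.8, with a counting interval of 2.25 to 687. S100a9 had 4, 8 and 14 counts in knockout and none with overexpression, at least 2.51-fold lower with overexpression against a floor of 3 counts. S100a8 reached at most 1.92 CPM and S100a9 at most 0.384 CPM, both in knockout replicate 3, which held most of the S100a8 counts. In that library S100a8 stood above S100a2 (0.767 CPM) and S100a7a (1.07 CPM). In every library S100a8 and S100a9 were far below S100a6, S100a10 and S100a11. The sum of 7 white blood cell markers had the same order of knockout libraries as S100a8, at 31.5, 57.6 and 227 CPM in replicates 1 to 3. With overexpression the sum was 1.19 to 2.27 CPM, and all 5 markers that passed the filter fell. Cd79a, 1 of the 7, was instead lowest in replicate 3 of the knockout libraries (0.322, 0.430 and 0.137 CPM). The order of the knockout sums was not particular to white blood cells. Marker sums of endothelium (28.4, 49.6 and 104 CPM), skeletal muscle (8.85, 14.5 and 23.4 CPM) and adipocytes (3.17, 3.64 and 6.99 CPM) had it too. So did those of macrophages and neutrophils, while those of fibroblasts, mural cells, Schwann cells and keratinocytes had other orders. The 6 macrophage markers summed to 14.8 to 24.0 CPM in knockout and 13.4 to 27.6 CPM with overexpression. Of these, Lyz2 and C1qa fell, while Csf1r and Cd68 did not pass the test. The 7 neutrophil markers summed to 4.48 to 6.44 CPM in knockout and 2.68 to 9.98 CPM with overexpression, with Ngp at 0 in all libraries. They went different ways. Csf3r fell (5.50-fold lower, adjusted p = 0.0232), while Ly6g (log2 fold change 1.14, adjusted p = 0.185) and Cxcr2 (-0.73, adjusted p = 0.189) did not pass the test. Ly6g made up most of the sum in overexpression replicates 1 and 2, but not in replicate 3. The suprabasal keratin gene Krt1, chosen after its values were seen, was also highest in knockout replicate 3, with 1, 91 and 589 counts in knockout and 6, 0 and 3 with overexpression. The part of white blood cells or of suprabasal cells in the S100a8 and S100a9 counts was not tested.

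**Figure D2:**
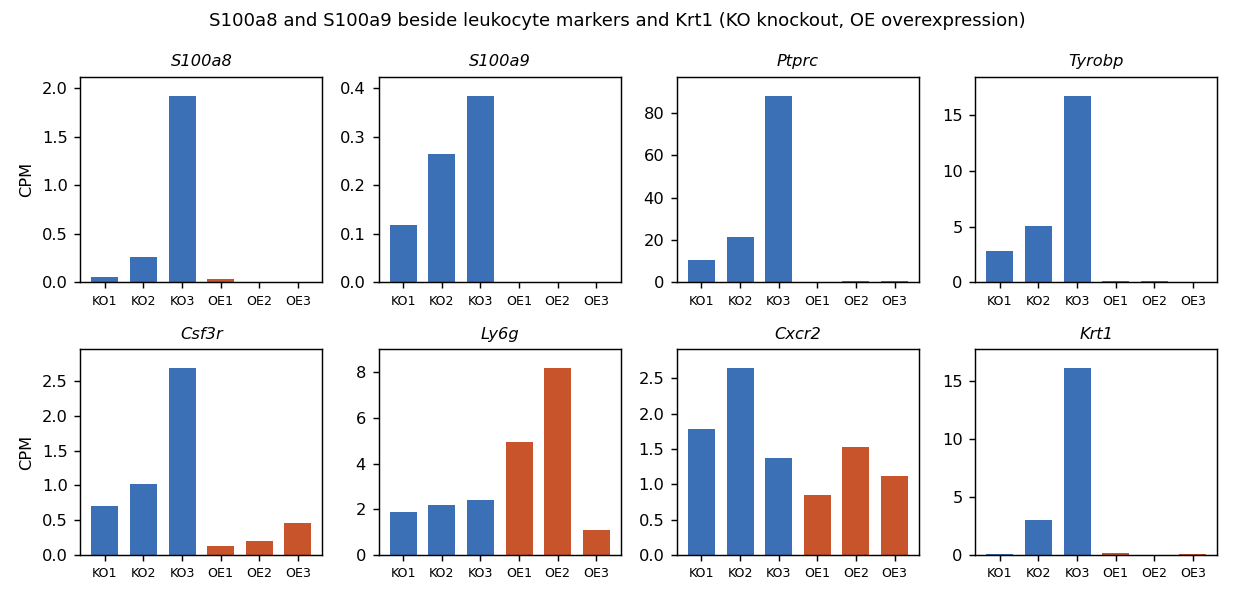
CPM in each library for S100a8 and S100a9, for the white blood cell genes Ptprc and Tyrobp, for Csf3r, Ly6g and Cxcr2, the 3 neutrophil markers that passed the filter, and for the suprabasal keratin Krt1, each on its own linear axis from 0. Knockout replicate 3 is the highest library for 6 of the 8 genes, while Ly6g is highest in overexpression replicate 2 and Cxcr2 in knockout replicate 2.

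Per kilobase of exon, the order of levels shifted towards Sprr genes with overexpression. In knockout the leading genes were S100a11 at 670 CPM per kilobase, S100a6 at 343, S100a10 at 238 and S100a4 at 91.8, with Sprr1a in position 8 at 23.0. With overexpression the leading genes were S100a11 at 1264 CPM per kilobase, S100a6 at 766, Sprr1a at 505 and S100a10 at 450. As a share of the summed CPM of all 61 genes, S100A genes made up 95.5% to 97.5% in knockout and 73.4% to 82.7% with overexpression. Sprr genes made up 2.09% to 4.03% and 16.7% to 25.4%. These shares compare members with one another in a library and do not depend on the scaling between libraries.

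**Figure D3:**
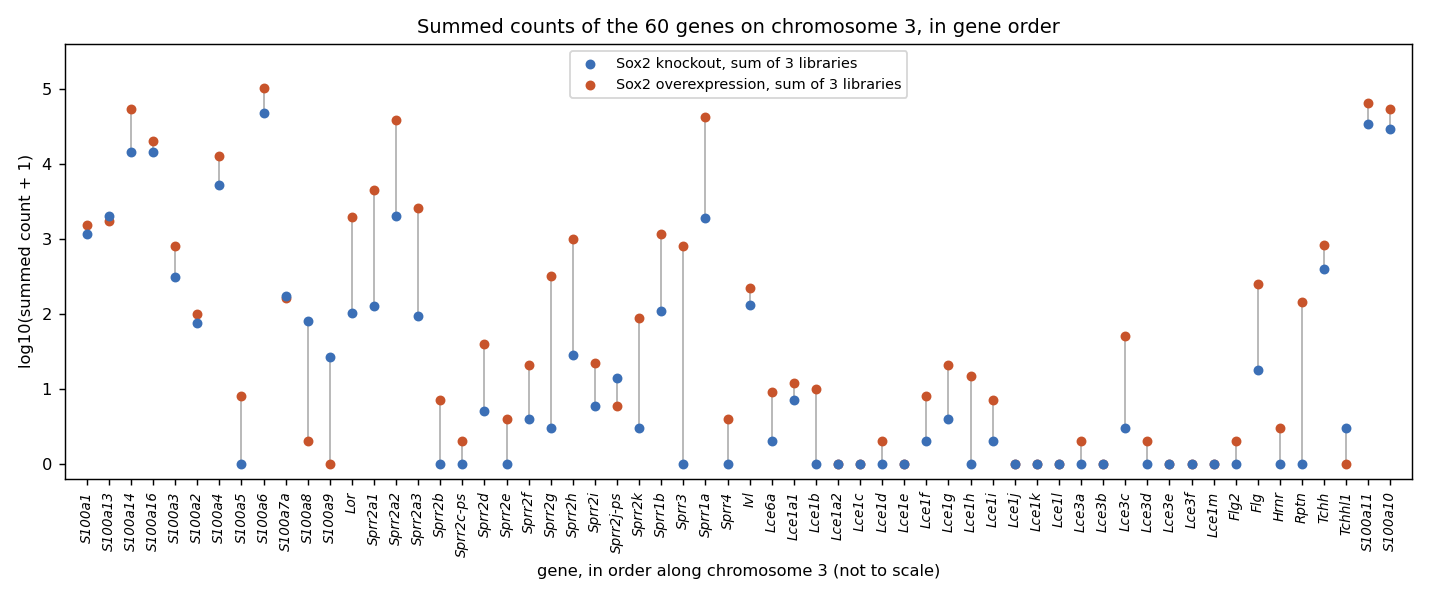
Counts summed over 3 libraries per group, as log10 of the count plus 1, for the 60 genes on chromosome 3 in gene order and not to scale. S100A genes at both ends have the highest counts, and most Lce genes lie near 0. Wide gaps between the groups lie between Lor and Sprr1a, though not for every gene there, and at Flg and Rptn.

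The same interval holds 61 other annotated genes, of which 7 passed the filter and 4 rose. Crnn, Pglyrp3 and Gm37752 passed it through their overexpression libraries, so their rise is no independent support. Of the 3 genes that passed it on their knockout libraries alone, 1, Gm35439, rose. All but Crnn were named after their values were seen. Crnn (cornulin, a fused S100 protein between the Lce genes and Flg) had 1, 0 and 0 counts in knockout and 162, 72 and 79 with overexpression (adjusted p = 0.000139). Pglyrp3, which encodes a peptidoglycan recognition protein, had 23, 12 and 0 counts against 196, 81 and 151 (adjusted p = 0.0141). The non-coding gene Gm35439 had 71, 71 and 38 counts against 393, 196 and 382 (adjusted p = 0.00156), and the unclassified transcript Gm37752 had 19, 8 and 7 counts against 213, 40 and 170 (adjusted p = 0.00349). All 4 stood higher in every overexpression library than in any knockout library.

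With libraries scaled to 21 epithelial genes, the Sprr genes, Lor and Flg still rose, and 5 of the 6 S100A genes that rose under TMM did not pass the test. Of the 21, 16 rose under TMM, and scaling to them moved the median log2 fold change of all genes from -0.016 to -1.08. With this scaling 13326 of all 18504 genes tested passed the threshold in either direction, against 5848 under TMM. The 8 tested Sprr genes still rose, as did Lor (log2 fold change 3.18, adjusted p = 0.000212) and Flg (2.65, adjusted p = 0.0109). Of these, Sprr2g, Sprr2h, Sprr3 and Flg had passed the filter through their overexpression libraries, so their rise is no independent support. Of the S100A genes, S100a14 still rose (0.80, adjusted p = 0.0248). S100a3, S100a4 and S100a6 kept values above 0, at 0.31, 0.16 and 0.085, without passing the test. S100a10 and S100a11 turned to -0.16 and -0.15 and Tchh to -0.080, none past the threshold, and S100a2 and Ivl, at -0.60 and -0.38, also turned without passing it. S100a1 fell by 0.71 on the log2 scale, S100a13 by 1.29, S100a16 by 0.60 and S100a7a by 1.20, each with an adjusted p under 0.05. In all, 11 members rose and 4 fell, and the 11 were among the 17 that rose under TMM. Of the 11 tested S100A genes, 6 kept the direction they had under TMM.

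**Figure D4:**
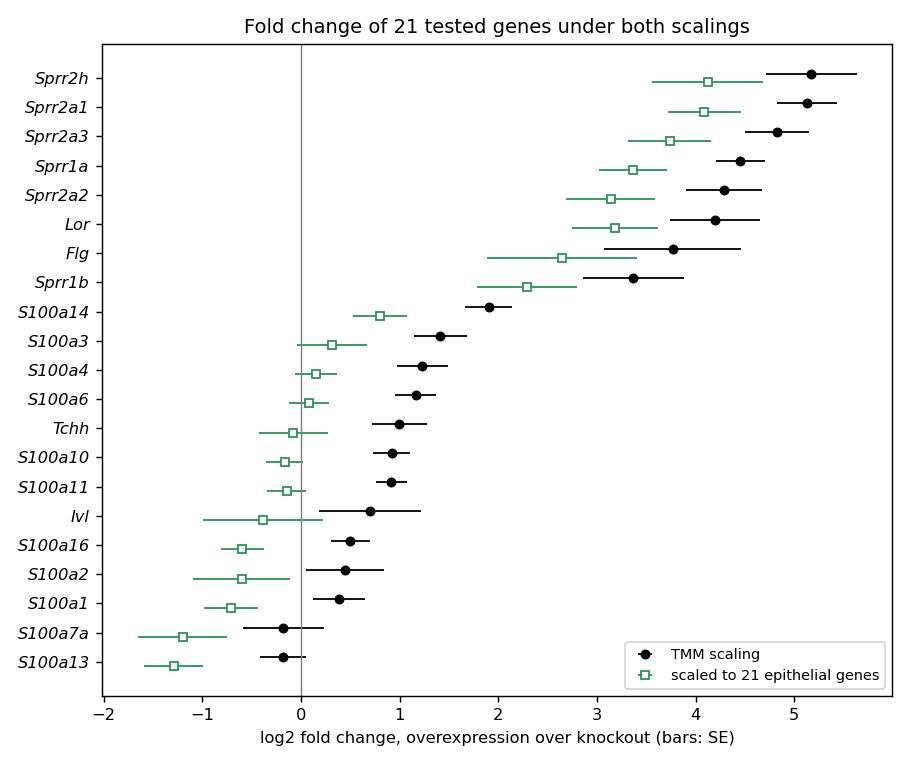
Log2 fold change of overexpression over knockout with its standard error for 21 tested genes, under TMM (black) and scaled to 21 epithelial genes (green). Sprr genes, Lor and Flg stay right of 0 under both, while S100a1, S100a2, S100a10, S100a11, S100a16, Ivl and Tchh cross 0. Sprr3 and Sprr2g are not drawn, since with 0 and 2 knockout counts their fitted size rests on a prior count.

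Other genes of cornification, the enzymes, junction proteins and transcription factors of the process, rose in part under TMM. Of 55 listed genes, 54 were in the table and 38 passed the filter. Under TMM 18 rose and 1 fell. Of the 38, 8 had not passed on their knockout libraries alone, Cnfn, Asprv1, Crnn and Abca12 among them, and of the 30 others 13 rose, with a median log2 fold change of 0.95. Scaled to the epithelial genes, 8 rose and 7 fell, while 13326 of all 18504 genes tested passed the threshold in either direction. Cnfn (cornifelin, an envelope protein) had 4, 0 and 3 counts in knockout and 406, 158 and 403 with overexpression (log2 fold change 7.01, SE 0.65, adjusted p = 7.57e-05). Asprv1, the protease that processes profilaggrin, was at 1.61, 0.231 and 1.12 CPM in knockout and 39.9, 25.7 and 43.9 CPM with overexpression (36.3-fold, adjusted p = 0.000139). In both, every overexpression library was far above the knockout libraries. Cnfn and Asprv1 passed the filter through their overexpression libraries, so this separation is no independent support. Sbsn (suprabasin), the listed gene that fell, was at 18.9, 28.4 and 50.9 CPM against 19.3, 10.1 and 14.5 CPM, 2.24-fold lower with overlapping groups (adjusted p = 0.0421). The keratin Krt10 (3.28, 6.88 and 12.8 CPM against 3.39, 3.28 and 3.16 CPM) and Klf4, a factor of terminal differentiation, did not pass the test. Both were chosen after their values were seen.

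**Figure D5:**
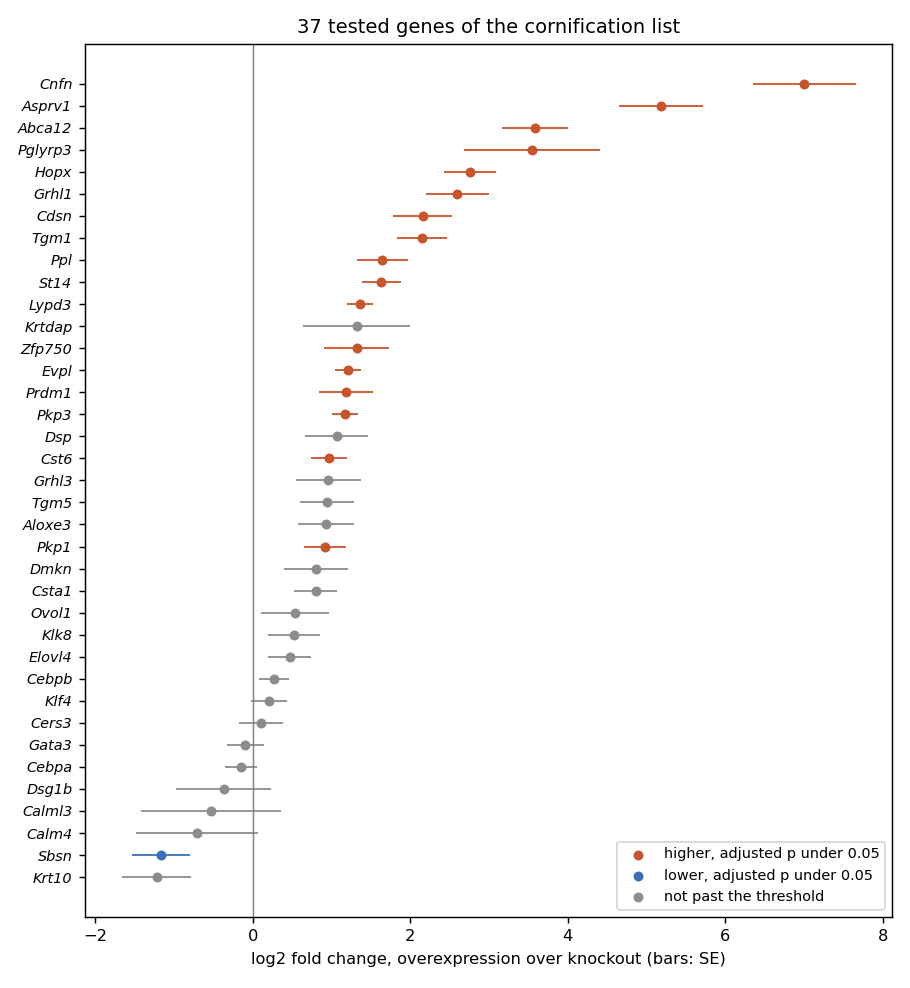
Log2 fold change of overexpression over knockout with its standard error for 37 tested genes of the cornification list under TMM, coloured by test result. Cnfn and Asprv1 lie furthest right and Sbsn is the one gene past the threshold on the left. Crnn, with 1 knockout count, is not drawn.

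The RNA of listed binding partners and relatives of S100 proteins differed less under TMM. Of 15 listed annexins, receptors and other partners and relatives, 13 passed the filter and 5 rose, and the median of their log2 fold changes was 0.42. In edgeR's test 0 fell, 0 had an unadjusted p under 0.05 in that direction, and DESeq2 called 0 lower. With the epithelial scaling 0 rose and 8 fell, while 13326 of all 18504 genes tested passed the threshold in either direction. Anxa2, the partner of S100a10, was at 937, 1007 and 802 CPM in knockout and 1780, 2233 and 1925 CPM with overexpression (log2 fold change 1.11, SE 0.18, adjusted p = 0.00195). Anxa11, a partner of S100a6, was at 118, 105 and 108 CPM against 211, 233 and 195 CPM (log2 fold change 0.95, SE 0.14, adjusted p = 0.00121). Anxa5 had a log2 fold change of 0.82 (SE 0.18, adjusted p = 0.00951). For all 3 annexins the groups did not overlap under TMM, but none of the 3 rose with the epithelial scaling.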

How the data were processed

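Bulk RNA-seq counts of 3 knockout and 3 overexpression libraries were analysed. The deposited values are whole-number counts per gene with no normalization. The submitters' processing notes name kallisto 0.44.0 and the build mm10, and the annotation, the summing to genes and the strand setting are not given in the sources used here. Rows that name no mouse gene (96, at most 2.23e-05% of a library's counts) were left out. Symbols and positions came from GENCODE M21 on GRCm38 and promoters from RefSeq on GRCm38.p6. GENCODE M21 named 55144 IDs.

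The filter was edgeR's filterByExpr with a minimum count of 10 and a minimum total of 15. Counts were scaled with TMM and tested with edgeR 4.0.16 (glmQLFTest, group as the only term) in R 4.3.3. The standard error is the log2 fold change divided by the square root of F. A group with no count was set to a floor of 3 counts per library, and a group with 1 to 3 counts in all was given a ratio of pooled counts with a 95% exact binomial interval. Without molecular identifiers both describe counting error alone. Shared sequence was counted in words of 31 bases, kallisto's default length.

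On simulated counts for the comparison of overexpression with knockout over 18504 genes, the fit recovered 78 of 101 genes changed 4-fold and 28 of 99 changed 2-fold, with 4 false calls among 110. Alternatives were RLE and upper-quartile scaling, scaling to 21 epithelial genes, no filter, robust dispersion, a replicate block, DESeq2 1.42.0, leaving out each library, and, added after the data were seen, Sprr2a1, Sprr2a2 and Sprr2a3 summed. The members, lists and markers were chosen with earlier results of these data known. The rule for names covers every tested member with its libraries' values, other members by their counts, and the 3 genes of smallest p past the threshold in each direction in the cornification and S100 partner lists. The labels give no sequencing batch or date.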

Additional observations from a re-analysis of the deposited data

Results flagged for a closer look

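Among the 4 construct or reporter rows of the table, which no comparison used, mCherry had 0, 1 and 8 counts in knockout replicates 1 to 3 and 0 in every overexpression library. The 8 counts in knockout replicate 3 lie above the 3 that a count of 0 allows. The rows rtTA3_ORF, OVA and tdTomato were at 0 in all 6 libraries. Knockout replicate 3 is also the library with the most S100a8 and S100a9 counts, 70 and 14.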

How the results depend on the processing

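Over the log2 fold changes of the 23 tested members, 319 values under alternatives were compared with the reported ones. In 302 the direction and the side of the threshold were as reported, in 7 the value no longer passed, in 2 it newly passed, and 8 changed sign. Of the 8, 7 were under scaling to the epithelial genes, at -0.71 for S100a1, -0.60 for S100a16, -0.60 for S100a2, -0.38 for Ivl, -0.080 for Tchh, -0.15 for S100a11 and -0.16 for S100a10, and the other was S100a7a, at 0.23 without knockout replicate 2, with values from -0.43 to 0.23 when each library was left out. S100a2, Ivl and S100a7a did not pass the threshold in these settings or as reported. Under the epithelial scaling 11 members rose and 4 fell, against 17 and 0, 8 genes of the cornification list rose and 7 fell, against 18 and 1, and 0 S100 partners rose and 8 fell, against 5 and 0. Of all 18504 genes tested, 13326 passed the threshold in either direction under that scaling, against 5848 under TMM. Without the filter, 2 members fell (S100a8 and S100a9), 1 Lce gene passed (Lce3c) and 5 genes of the cornification list fell. DESeq2 called 2 genes of that list lower. Leaving out each library gave 0 to 1 Lce genes and 0 to 4 lower genes of the cornification list, with 4 without knockout replicate 1, 2 without overexpression replicate 1 and 0 without each of the other libraries. With Sprr2a1, Sprr2a2 and Sprr2a3 summed, the sum rose (log2 fold change 4.38, adjusted p = 4.22e-05), and the 5 other tested Sprr genes rose as before. The replicate numbers are not said to pair the libraries, and deviations of same-numbered libraries correlated at 0.0508, 0.0223 and -0.0399. With the replicate block, 17 members rose and 0 fell, as without it. The cause of these shifts was not tested. Depth limits the 38 untested members, of which 23 had at most 3 counts in every library.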
